A study of Rattus norvegicus with 25 samples.

Results

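The phase II conjugation enzymes described here were every probe set on a rat expression array whose single gene symbol named a UDP-glucuronosyltransferase (UGT), a glutathione S-transferase of the alpha, kappa, mu, omega, pi, theta or zeta class or a microsomal glutathione transferase (GST and MGST), or a sulfotransferase (SULT). The choice used the symbol alone and no measured value. It gave 50 probe sets for 46 genes, out of 31042 probe sets and 14217 genes with a single symbol: 11 UGT probe sets (9 genes), 24 GST and MGST probe sets (23 genes) and 15 SULT probe sets (14 genes). RNA came from McArdle-RH7777, a rat hepatoma cell line that makes and secretes apolipoprotein B lipoproteins. The study asked how Sar1, the small GTPase that starts assembly of COPII transport vesicles at the endoplasmic reticulum, affects gene expression in these cells.

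There were 4 groups in 7 stably transfected cell lines on 25 arrays: control (2 lines, 5 arrays), Sar1A (1 line, 4 arrays), Sar1B (2 lines, 8 arrays) and Sar1B:H79G (2 lines, 8 arrays). By the study's methods the control lines carried the empty vector, the Sar1 lines carried FLAG-tagged Sar1A or Sar1B under a tetracycline-inducible promoter, and Sar1B:H79G is a Sar1B mutant that cannot complete GTP hydrolysis. All lines, controls included, grew under blasticidin and Zeocin and received 1 µg/ml tetracycline for 24 h before harvest, so the tetracycline is shared by every comparison. Each line was a picked clone screened for the recombinant protein, and the arrays of a line were technical replicates, so the line was taken as the replicate and a difference that belongs to a clone cannot be told apart from one that belongs to its construct where a group has 1 line. Whether the recombinant Sar1 was raised in each line was not checked here. The study reports more recombinant Sar1 in its Sar1A lines than in its Sar1B:H79G lines, and a larger excess over its Sar1B lines. It also reports raised Sar1a mRNA and protein in Sar1B:H79G cells. The amount of Sar1 therefore cannot be told apart from the construct in comparisons among the Sar1 lines. A lower signal in a line may mean fewer expressing cells or less RNA per cell, and bulk RNA does not separate the 2.

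Facts that touch every result are few. The control arrays carry another prefix in their titles than all Sar1 arrays, so an array series and the presence of a construct cannot be told apart. The signal of poly-A spike-in probe sets for the 5′ end minus that for the 3′ end was -1.86 and -1.93 (log2) in the control lines and between -1.16 and -1.08 in the 5 others. The same measure for β-actin was -0.81 and -0.94 in control, -0.61 in Sar1A, -0.50 and -0.49 in Sar1B and -0.71 and -0.63 in Sar1B:H79G, so it also differed between the latter groups, and its part in the results was not tested. Because of the array series, the comparisons among the Sar1 lines come first. The deposited values are on a log2 scale, as read from their range, and the level of a gene is compared between lines within a probe set, not with the level of another gene. The hepatocyte marker list (9 measured genes) had line means of 11.40 to 11.76 in control, 11.39 in Sar1A, 11.36 to 11.58 in Sar1B and 11.04 to 11.15 in Sar1B:H79G. The endothelial, leukocyte and fibroblast lists had line means of 6.85 to 8.13, the biliary list of 8.25 to 8.53 and the fetal liver or hepatoma list of 9.34 to 9.62. In each of the latter 2 lists, 1 gene stood above the rest. Afp was at 13.87 to 14.49 over the lines, with Gpc3, Igf2 and H19 at 7.69 to 8.17. Epcam was at 10.12 to 10.88, with Krt7 and Krt19 at 7.19 to 7.44.

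Phase II enzymes attach a polar group to drugs, hormones, bile acids and reactive lipids, which makes these molecules more soluble and ready for export. UGTs are membrane proteins of the endoplasmic reticulum with their active site in its lumen, and they transfer glucuronic acid. GSTs are mostly cytosolic and transfer glutathione to electrophiles, while MGSTs do so in membranes. SULTs are cytosolic and transfer sulfate. All 3 superfamilies are abundant in liver, and many of their genes lie in tandem clusters of close relatives.

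Promoters of 3 members follow. Ugt2b7 and Ugt2b10 are shown because they are close neighbours that differed in opposite directions between Sar1B:H79G and Sar1B lines, and Sult2a6 because its promoter, like that of Ugt2b10, held GTTAAT, a core motif of the hepatocyte transcription factor HNF1. Each sequence is from RefSeq, build GRCr8, runs from 250 bases before the annotated start to 30 bases from it, 5′ to 3′ along the gene, and capitals mark GTTAAT or its reverse complement ATTAAC. Ugt2b7 lies on the plus strand at chr14:21251285-21251564, Ugt2b10 on the plus strand at chr14:21462591-21462870 and Sult2a6 on the minus strand at chr1:84097779-84098058.
Ugt2b7: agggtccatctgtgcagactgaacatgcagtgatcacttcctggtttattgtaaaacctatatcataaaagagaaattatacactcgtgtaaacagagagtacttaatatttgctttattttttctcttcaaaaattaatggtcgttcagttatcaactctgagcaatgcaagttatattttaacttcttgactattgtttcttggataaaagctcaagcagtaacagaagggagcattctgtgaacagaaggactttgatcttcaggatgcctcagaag
Ugt2b10: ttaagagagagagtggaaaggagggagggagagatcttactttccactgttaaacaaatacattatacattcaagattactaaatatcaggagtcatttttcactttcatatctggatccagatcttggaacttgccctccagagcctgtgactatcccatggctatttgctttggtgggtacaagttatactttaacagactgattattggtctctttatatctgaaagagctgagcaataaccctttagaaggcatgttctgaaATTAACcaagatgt
Sult2a6: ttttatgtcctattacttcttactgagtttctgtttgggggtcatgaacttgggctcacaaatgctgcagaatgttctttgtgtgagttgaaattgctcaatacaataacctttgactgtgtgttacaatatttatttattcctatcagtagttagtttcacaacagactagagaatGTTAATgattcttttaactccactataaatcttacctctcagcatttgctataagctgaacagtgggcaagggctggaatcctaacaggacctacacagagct

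Among the 46 genes, 39 had a promoter in the table, which held 33469 promoters of 300 bases in all. GTTAAT, searched on both strands, occurred in 5 of the 39 genes (Gsta1, Gsta3, Sult2a2, Sult2a6 and Ugt2b10) and in 7.45% of all promoters. In Sult2a6 the match ended 68 bases before the start, and in Ugt2b10 it lay at bases 17 to 22 of the transcript. TGACNNNGC, the core of the antioxidant response element, occurred in 6 of the 39 genes (Gsta1, Gsta3, Gstm5, Gstm7, Gstp1 and Gstz1) and in 12.1% of all promoters. GCGTG, the core of the xenobiotic response element, occurred in 10 of the 39 genes and in 29.7% of all promoters. Of the 8 genes that were lower in Sar1B:H79G than in Sar1B lines, as given next, 2 held GTTAAT, 1 held TGACNNNGC and 1 held GCGTG. These counts describe letters in a window and carry no test.

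Sar1B:H79G lines had lower levels of 8 conjugation enzymes than Sar1B lines and a higher level of 1. The 8 were Gsta4, Gstm2, Gstm7, Gstt3, Mgst1, Sult1b1, Sult2a6 and Ugt2b10, by 1.44- to 2.53-fold, and the 1 was Ugt2b7, by 5.75-fold. They spanned all 3 superfamilies: 1 of 11 UGT probe sets was lower and 1 higher, 5 of 24 GST and MGST probe sets were lower, and 2 of 15 SULT probe sets were lower. Called means an adjusted p below 0.05 in limma on the 7 line means, with Benjamini-Hochberg adjustment over 31042 probe sets. The 8 lower members were 16% of the 50, against 5.29% of all probe sets called lower, and the 1 higher member was 2% against 3.34% called higher. By mean signal 30 of the 50 members lay above the median probe set, and in a fit of brighter probe sets alone 7 of 30 members were called lower against 10.4% of those probe sets. Leaving out either control line, which adds to the spread in the fit and not to this difference, lowered the count from 8 to 5 (2.88% of all probe sets). The median difference over the 50 members was -0.21 on the log2 scale, against 0.0078 over all probe sets, and 35 of 50 were negative.

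**Figure D1:**
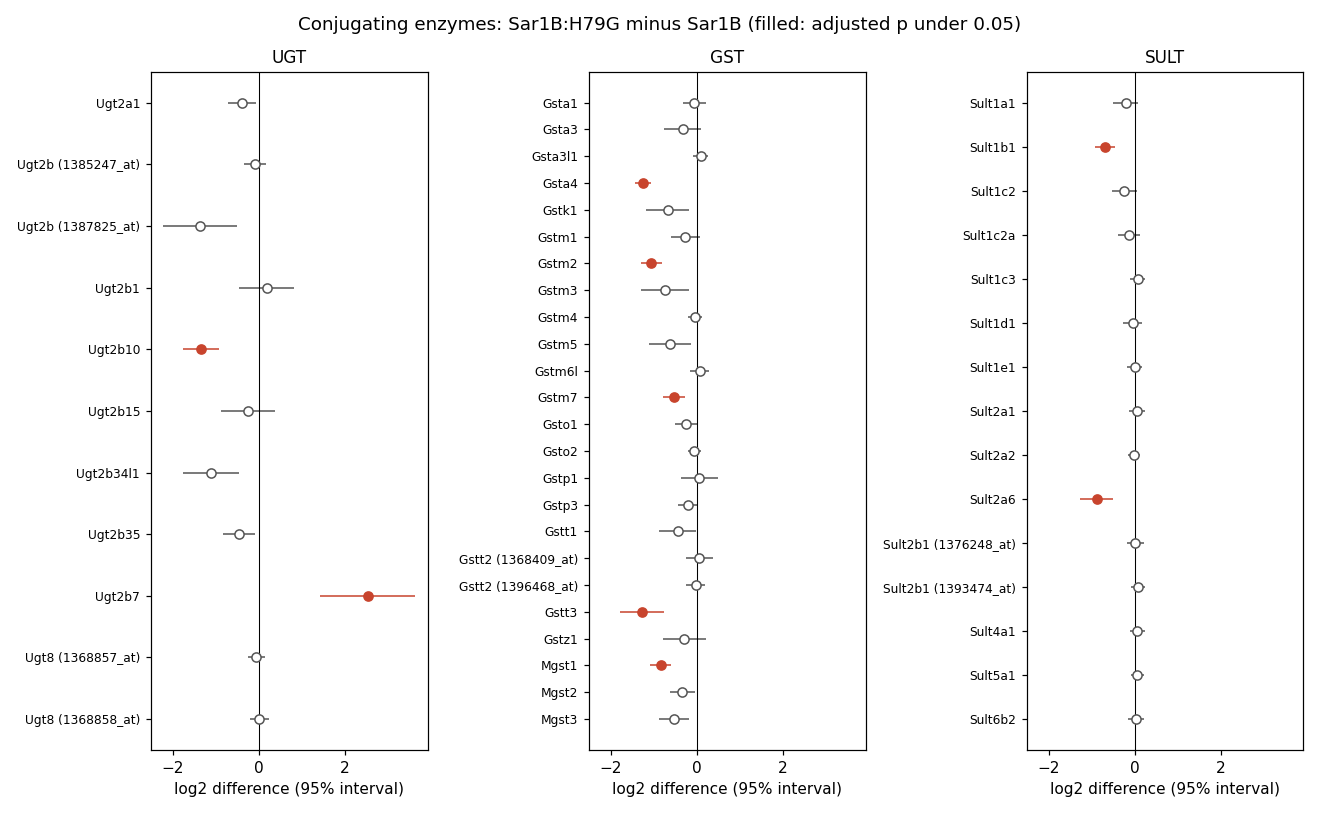
Difference in log2 signal between Sar1B:H79G and Sar1B lines (2 lines each) for all 50 probe sets, in panels by superfamily; bars are 95% intervals from limma and filled points passed an adjusted p of 0.05. Of the 9 filled points, 8 lie left of 0 and Ugt2b7 lies at 2.52.

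The UGT2 family, whose members glucuronidate steroids, bile acids and many drugs, held both the rise and the largest fall among these 9. Ugt2b10 had log2 values of 12.68 and 13.01 in the Sar1B lines, 13.04 in the Sar1A line, 12.95 and 12.51 in the control lines, and 11.44 and 11.57 in the Sar1B:H79G lines. Both Sar1B:H79G lines lay below each of the 5 others, with no overlap of arrays between the Sar1B:H79G group and either Sar1 group. The difference was -1.34 ± 0.17 (SE; limma adjusted p = 0.00916) against Sar1B and -1.53 ± 0.21 (limma adjusted p = 0.0234) against Sar1A, the latter lost without Sar1B:H79G line 2 (limma adjusted p = 0.0505). Against control it was -1.22 ± 0.17 (limma adjusted p = 0.00700).

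Ugt2b7 differed between Sar1B:H79G and Sar1B in the opposite direction. Its log2 values were 8.92 and 9.41 in the Sar1B lines and 12.18 and 11.19 in the Sar1B:H79G lines, with 11.62 in the Sar1A line and 10.34 and 11.47 in the control lines. The 2 Sar1B lines were thus the lowest of the 7, and the Sar1B:H79G lines lay among or above the control and Sar1A lines. Sar1B:H79G exceeded Sar1B by 2.52 ± 0.45 (limma adjusted p = 0.0252). The differences of Sar1A from Sar1B (2.46 ± 0.56, limma adjusted p = 0.416) and of Sar1B from control (-1.74 ± 0.45, limma adjusted p = 0.0687) did not pass, and Sar1B:H79G differed from control by 0.78 ± 0.45 (limma adjusted p = 0.252). Leaving out Sar1B line 1 ended the call against Sar1B (limma adjusted p = 0.0826), as did leaving out Sar1B line 2 (0.0658) or Sar1B:H79G line 1 (0.0621), while the difference stayed between 2.03 and 2.77 in those fits.

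The remaining UGT2 probe sets varied between lines of 1 group. For Ugt2b, the first of 2 probe sets had log2 values of 6.22 and 7.22 in the Sar1B:H79G lines and 8.42 and 7.75 in the Sar1B lines, with 8.33 in Sar1A and 8.28 and 8.50 in control. The Sar1B:H79G lines were the lowest, and the difference passed against control (-1.67 ± 0.35, limma adjusted p = 0.0233) and not against Sar1B (-1.36 ± 0.35, limma adjusted p = 0.0722) or Sar1A (-1.61 ± 0.43, limma adjusted p = 0.133). This call ended when control line 1 (limma adjusted p = 0.0807) or control line 2 (0.147) was left out. The second Ugt2b probe set stayed between 5.32 and 5.83 in all lines and passed in no comparison. Its mean signal lay at percentile 1.39 of all probe sets, so a fall in it could go unseen. Ugt2b34l1 differed by -1.11 between Sar1B:H79G and Sar1B lines without passing (limma adjusted p = 0.0574), its Sar1B lines standing at 9.10 and 9.90. Ugt2b1, Ugt2b15, Ugt2b35 and Ugt2a1 passed in none of the 6 comparisons.

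Between the 2 lines of a group, UGT2 probe sets differed more than most. Over the 9 UGT2 probe sets the median absolute gap between the lines was 0.31 for control, 0.33 for Sar1B and 0.25 for Sar1B:H79G, against 0.093, 0.076 and 0.085 over all probe sets. In the Sar1B:H79G group, line 2 minus line 1 was -0.99 for Ugt2b7, -0.85 for Ugt2b1, -0.81 for Ugt2b15 and 0.99 for Ugt2b. These 4 were picked for their large gaps, and 2.5% of all probe sets differed by more than 0.5 in that group. Arrays of the 2 lines did not overlap in any of the 4, and the share of all probe sets without overlap is not given here. In the control group Ugt2b7 differed by 1.13 between lines, also without overlap of arrays, and 0.928% of all probe sets differed by more than 0.5 there.

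By position the UGT2 genes form 1 cluster. In the GRCr8 gene order Sult1d1, Sult1b1, Ugt2a1, Ugt2b, Ugt2b15, Ugt2b35, Ugt2b7, Ugt2b1, Ugt2b10 and Ugt2b34l1 follow each other on chromosome 14 with 6 other protein-coding genes among them. Sult1b1 and Ugt2b10 fell and Ugt2b7 rose in Sar1B:H79G relative to Sar1B lines, and the other 7 genes did not pass. Only 2 other protein-coding genes and Ugt2b1 separate Ugt2b7 from Ugt2b10. Whether a probe set of this family also binds transcripts of a close relative was not tested.

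**Figure D2:**
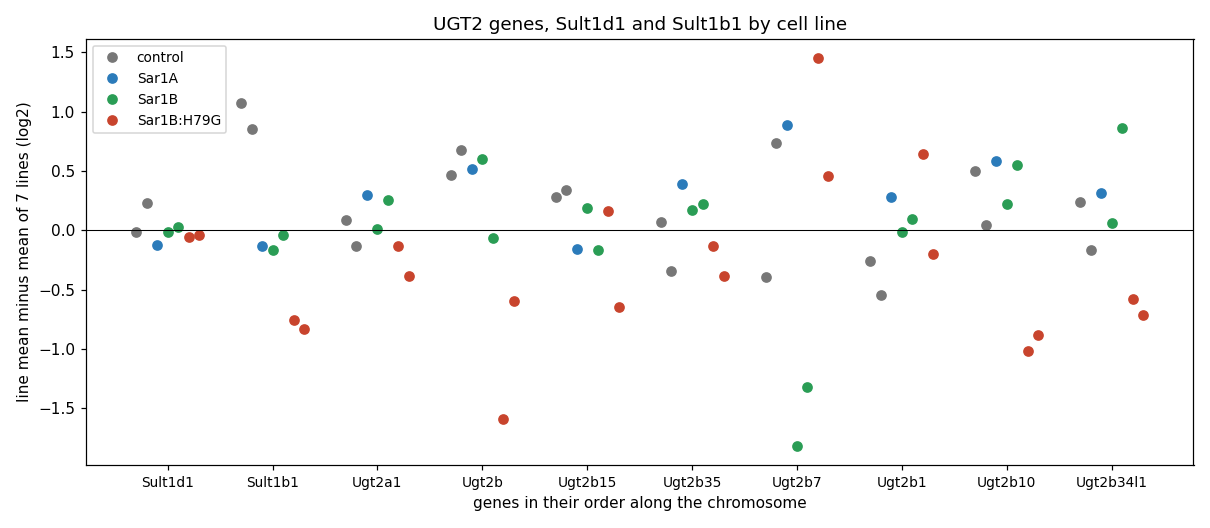
Line mean minus the mean of the 7 lines (log2, vertical axis) for 10 neighbouring genes in chromosomal order (horizontal axis); each point is 1 cell line, coloured by group, and Ugt2b is shown by its brighter probe set. The Sar1B:H79G lines are lowest for Sult1b1, Ugt2b, Ugt2b10 and Ugt2b34l1, the last of which was not called, and the Sar1B lines are lowest for Ugt2b7.

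The UGT1A locus, whose transcripts share their last exons, was measured by 2 probe sets that carry 8 symbols each and are not among the 50. Their values were 13.48 to 14.32 over the 7 lines, and neither passed in any comparison. Ugt8, which makes galactosylceramide and is no drug-conjugating enzyme, had 2 dim probe sets, with mean signals at percentiles 10.2 and 1.78 of all probe sets. The first, at 6.55 to 7.10, was lower in Sar1B:H79G than in control lines by 0.35 (limma adjusted p = 0.0402). The second, at 5.54 to 5.74, was not. The former call was lost when any 1 of 5 lines was left out (limma adjusted p of 0.0595 to 0.172), control line 1 being the exception among the 6 lines tried.

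Of the glutathione transferases, Gsta4, which conjugates 4-hydroxynonenal and other products of lipid peroxidation, gave the tightest difference. Its log2 values were 12.58 and 12.65 in the Sar1B lines, 12.35 in Sar1A, 12.42 and 12.26 in control, and 11.37 and 11.35 in the Sar1B:H79G lines. The Sar1B:H79G lines lay apart from all 5 others. The difference was -1.26 ± 0.08 against Sar1B (limma adjusted p = 0.00189), -0.996 ± 0.093 against Sar1A (limma adjusted p = 0.00959) and -0.98 ± 0.08 against control (limma adjusted p = 0.00142). The other 3 alpha class probe sets, among them the bright Gsta1 and Gsta3, passed in no comparison, and Gsta1 differed by -0.06 between Sar1B:H79G and Sar1B lines (95% interval -0.33 to 0.22).

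Mgst1, the membrane-bound glutathione transferase and peroxidase of the endoplasmic reticulum and outer mitochondrial membrane, was also lowest in the Sar1B:H79G lines. It had log2 values of 13.82 and 13.70 in Sar1B, 13.996 in Sar1A, 13.52 and 13.37 in control, and 13.01 and 12.82 in Sar1B:H79G. Both Sar1B:H79G lines were below every other line. Differences were -0.84 ± 0.10 against Sar1B (limma adjusted p = 0.00664), -1.08 ± 0.12 against Sar1A (limma adjusted p = 0.0136) and -0.53 ± 0.10 against control (limma adjusted p = 0.0153). The last was lost without Sar1B:H79G line 2 (limma adjusted p = 0.0518), the first control line (0.0679) or the second (0.0632). Mgst2, which can make leukotriene C4, and Mgst3 were lower in Sar1B:H79G than in control lines, by 0.57 and 0.82, and did not pass within the Sar1 lines. For Mgst2 the call was lost without Sar1B:H79G line 2 (limma adjusted p = 0.0713), the first control line (0.0926) or the second (0.0870), and for Mgst3 without control line 1 alone (0.0550).

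Gstt3, a theta class enzyme, had log2 values of 12.30 and 13.01 in the Sar1B lines, 12.48 in Sar1A, 12.30 and 12.33 in control, and 11.41 and 11.37 in Sar1B:H79G. The Sar1B lines differed by 0.71, and still the Sar1B:H79G lines were below all others. The difference was -1.27 ± 0.21 against Sar1B (limma adjusted p = 0.0201) and -0.93 ± 0.21 against control (limma adjusted p = 0.0285), and -1.09 ± 0.26 against Sar1A did not pass (limma adjusted p = 0.0970). Leaving out either control line (limma adjusted p = 0.0700), Sar1B:H79G line 1 (0.0525) or Sar1B:H79G line 2 (0.0593) ended the call against Sar1B. Against control it was lost without control line 1 (0.101), control line 2 (0.153), Sar1B:H79G line 1 (0.0774) or Sar1B:H79G line 2 (0.0785).

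In the mu class, which detoxifies epoxides and quinones, Gstm2 was highest in the Sar1B lines. Gstm2 had log2 values of 8.64 and 8.48 in Sar1B, 8.004 and 7.79 in control, 7.62 in Sar1A, and 7.47 and 7.53 in Sar1B:H79G. Arrays of the Sar1A and Sar1B:H79G groups overlapped. Sar1B:H79G was below Sar1B by -1.06 ± 0.10 (limma adjusted p = 0.00429) and Sar1B above control by 0.67 ± 0.10 (limma adjusted p = 0.0199). Sar1A and Sar1B:H79G differed by 0.11 in size (95% interval of Sar1B:H79G minus Sar1A -0.41 to 0.18).

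The call of Gstm2 for Sar1B above control was lost without control line 2 (limma adjusted p = 0.133), Sar1B line 1 (0.0688) or Sar1B line 2 (0.0549). Sar1B:H79G was also below control, by -0.39 ± 0.10 (limma adjusted p = 0.0370), a call lost without control line 1 (0.118), control line 2 (0.0666), Sar1B:H79G line 1 (0.126) or Sar1B:H79G line 2 (0.0813). Gstm7 fell by 0.53 between Sar1B and Sar1B:H79G lines (limma adjusted p = 0.0334). The call was lost without either control line (0.0584), Sar1B line 2 (0.139), Sar1B:H79G line 1 (0.105) or Sar1B:H79G line 2 (0.0763). Against control the Sar1B:H79G lines differed in Gstm7 by -0.93 (limma adjusted p = 0.00361), a call kept in 14 of 14 alternatives. Among the 7 mu class genes, which lie together on chromosome 2, these 2 passed and Gstm1, Gstm3, Gstm4, Gstm5 and Gstm6l did not.

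Gstp1, the placental-type enzyme that is a textbook marker of rat liver carcinogenesis, had log2 values of 14.06 to 14.95 over the 7 lines and passed in none of the 6 comparisons. The omega class enzyme Gsto1, at 12.76 to 13.21, Gstk1, Gstz1, which isomerizes maleylacetoacetate in tyrosine breakdown, and the other theta class genes also passed in none. Gstk1 and Gstz1 were among 6 members whose Sar1B lines differed by more than 0.5, a gap that 2.30% of all probe sets showed in that group.

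Of the sulfotransferases, Sult1b1, which sulfates phenols and thyroid hormones, changed in 5 of the 6 comparisons. It had log2 values of 11.46 and 11.24 in the control lines, 10.24 in Sar1A, 10.21 and 10.34 in Sar1B, and 9.62 and 9.55 in Sar1B:H79G. The lines fell into 3 levels with no overlap, control highest and Sar1B:H79G lowest. Differences were -0.69 ± 0.10 for Sar1B:H79G against Sar1B (limma adjusted p = 0.0111), -0.66 ± 0.12 against Sar1A (limma adjusted p = 0.0451) and -1.76 ± 0.10 against control (limma adjusted p = 0.000898). Against control, Sar1B was lower by 1.07 ± 0.10 (limma adjusted p = 0.0102) and Sar1A by 1.10 ± 0.12 (limma adjusted p = 0.0329).

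The Sult1b1 call against Sar1B was lost without Sar1B line 2 (limma adjusted p = 0.0560). That against Sar1A was lost when any 1 of the 6 other lines was left out (0.0575 to 0.115). The call of Sar1B against control was lost without control line 2 (0.0823), and that of Sar1A against control without control line 1 (0.0652) or control line 2 (0.164).

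Sult2a6, a hydroxysteroid and bile acid sulfotransferase, had log2 values of 7.83 and 7.78 in Sar1B, 7.71 in Sar1A, 7.81 and 7.91 in control, and 6.67 and 7.17 in Sar1B:H79G. The difference between Sar1B:H79G and Sar1B was -0.88 ± 0.16 (limma adjusted p = 0.0243). It was lost without either control line (limma adjusted p = 0.0757 for both), Sar1B line 1 (0.0779) or Sar1B line 2 (0.0869). The other SULT2A genes, Sult2a1 and Sult2a2, passed in no comparison. They were dim, with mean signals at percentiles 0.474 and 12.6 of all probe sets, against 31.3 for Sult2a6. A fall in them could go unseen. Of the remaining SULT probe sets, Sult1c2 alone passed, and only against control, by -0.55 (limma adjusted p = 0.0249) in Sar1B:H79G, a call lost without control line 1 (0.0733), control line 2 (0.146) or Sar1B:H79G line 1 (0.0923). Sult1c2 was dim too, with its mean signal at percentile 8.97. Gstm7 and Sult2a6 fall outside the rule for named genes and were named after their values were seen, as were Mgst2, Mgst3, Sult1c2 and Ugt8.

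**Figure D3:**
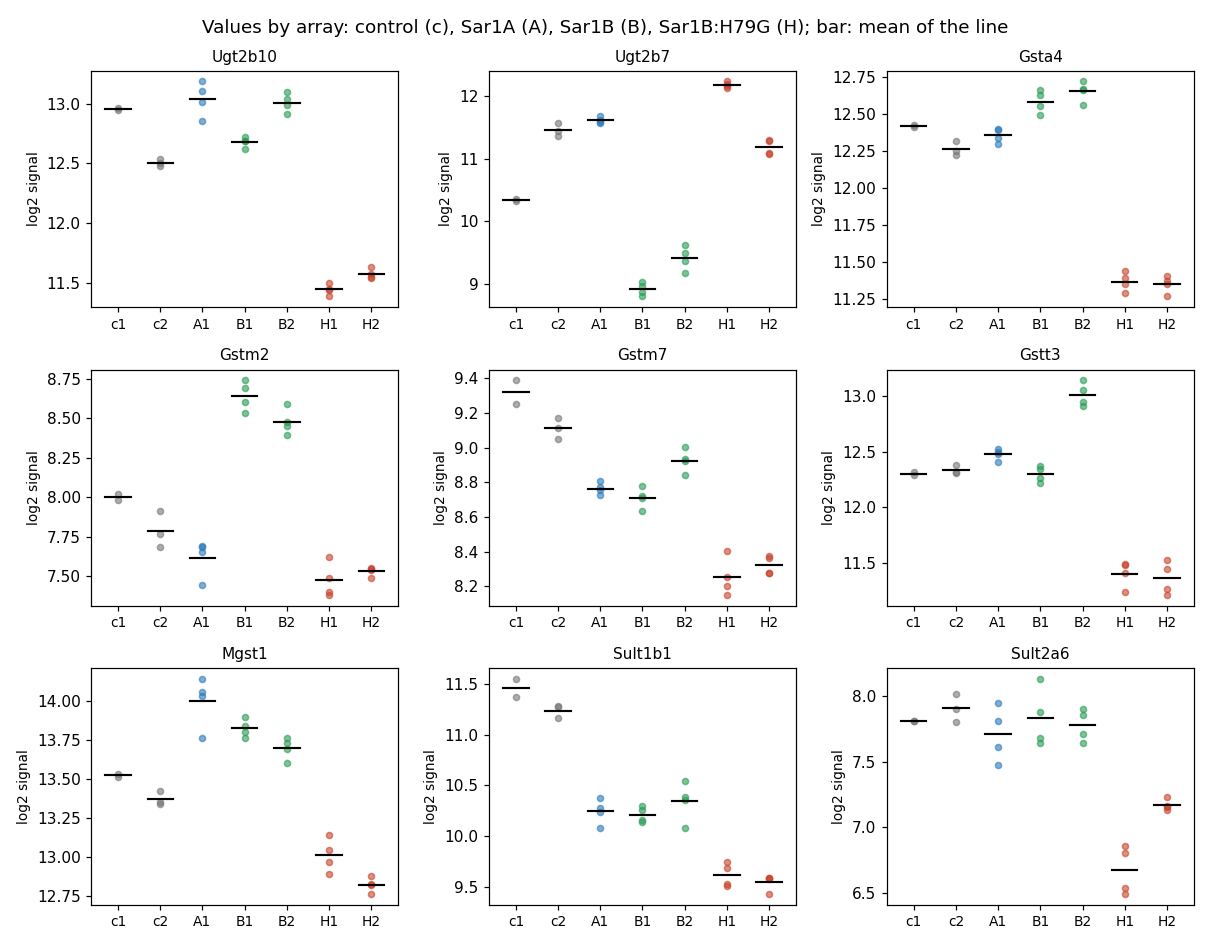
Log2 signal on each array (points) and the mean of each line (bar) for the 9 members called between Sar1B:H79G and Sar1B; the horizontal axis gives control (c1, c2), Sar1A (A1), Sar1B (B1, B2) and Sar1B:H79G (H1, H2) lines, and each panel has its own axis that does not start at 0. The 2 Sar1B:H79G lines lie below both Sar1B lines in 8 panels and above them for Ugt2b7.

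Against the single Sar1A line, Sar1B:H79G was lower for Gsta4, Mgst1, Sult1b1 and Ugt2b10, 4 of 50 members (8%), against 1.63% of all probe sets lower. None was higher, against 1.33% of all. This comparison takes the spread of the single Sar1A line from the other groups and shares the Sar1B:H79G lines with the comparison above. With only these 2 groups in the fit no probe set passed. The limma adjusted p was then 0.0711 for Gsta4, 0.0914 for Mgst1, 0.112 for Sult1b1 and 0.0690 for Ugt2b10. The median over members was -0.10, against 0.014 over all probe sets.

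Between Sar1A and Sar1B no member passed in limma, and 3 of the 50 members had an unadjusted p below 0.05. The share of all probe sets with such an unadjusted p was not counted. By adjusted p, 0.00322% of all probe sets were called higher and 0% lower. The 3 differences were 2.46 for Ugt2b7 (95% interval 1.11 to 3.81), -0.95 for Gstm2 (-1.24 to -0.65) and -0.26 for Gsta4 (-0.49 to -0.035). They were picked by that unadjusted p, so it was fixed in advance that their intervals leave out 0. With 1 line against 2, a p that misses the threshold does not show that the isoforms act alike.

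Against control, 13 members were lower in Sar1B:H79G lines (26%) and none higher, where 9.17% of all probe sets were lower and 13.2% higher. The 13 were 7 GST or MGST, 3 UGT and 3 SULT probe sets, and the median was -0.20 against 0.027 over all probe sets. Fewer members were called lower when either control line was left out, and fewer of all probe sets were called too. In Sar1B lines, Gstm2 was higher and Sult1b1 lower than control, where 6.28% of all probe sets were higher and 2.01% lower. Both calls were lost without control line 2, as was every other call on the array. The Gstm2 call was lost without either Sar1B line, where fewer of all probe sets were called too. In the Sar1A line Sult1b1 was lower and no member higher, where 0.995% of all probe sets were higher and 0.187% lower. This call was lost without either control line, as was every other call on the array. Array series and construct cannot be told apart in these 3 comparisons, which share the control lines.

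Genes of 6 lists around conjugation were compared between Sar1B:H79G and Sar1B lines, where 8.63% of all probe sets were called in either direction. By direction, 3.34% were called higher and 5.29% lower. Each list gene is its brightest probe set. In the fit of probe sets above the median signal alone, 6.84% were called higher and 10.4% lower. In the list for cofactor supply, 2 of 13 measured genes, Gclc and Ugp2, were lower in Sar1B:H79G lines and none higher. Gclc, the catalytic subunit for glutathione synthesis, differed by -0.76 ± 0.15 (limma adjusted p = 0.0333). Ugp2, which makes UDP-glucose, differed by -0.53 ± 0.10 (limma adjusted p = 0.0271). Gclc had log2 values of 11.49 and 11.02 in Sar1B:H79G, 11.43 and 11.29 in control, 12.04 and 11.9955 in Sar1B, and 11.88 in Sar1A. Ugp2 had 11.29 and 11.22, 11.36 and 11.204, 11.675 and 11.89, and 11.91, in that order. For both, the Sar1B lines lay above the control lines. Against control, 0 of the 13 were called in Sar1B:H79G. Ugp2 was called higher in Sar1B than in control, a call kept in 8 of 14 alternatives. Among 13 other conjugating enzymes, Baat and Tpmt were lower in Sar1B:H79G than in Sar1B lines. Baat, the bile acid amidating enzyme, fell by 1.45 and Tpmt, the thiopurine methyltransferase, by 0.71. The 12 enzymes that act on or remove conjugates included Gusb, lysosomal β-glucuronidase, which fell by 0.87, and Sts, steroid sulfatase, which rose by 0.63.

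Of 8 exporters, Abcb1a, the drug efflux pump P-glycoprotein, rose and Abcg2 and Abcc5 fell. Abcb1a had log2 values of 9.53 and 8.79 in the Sar1B lines and 10.86 and 10.81 in the Sar1B:H79G lines, with 8.79 in Sar1A and 8.50 and 8.17 in control. The Sar1B:H79G lines were the highest of the 7, and the difference from Sar1B was 1.68 ± 0.24 (limma adjusted p = 0.0126). Abcg2 fell by 0.97 and Abcc5 by 0.76.

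Among 18 receptors and factors known to control conjugation genes, Foxa2, Hnf4a and Nr3c1 fell and Cebpb rose. Hnf4a, a nuclear receptor of hepatocyte genes, had log2 values of 10.89 and 10.82 in Sar1B, 10.57 in Sar1A, 10.76 and 10.67 in control, and 9.88 and 10.00 in Sar1B:H79G. The last were the lowest of the 7, with a difference of -0.92 ± 0.08 from Sar1B (limma adjusted p = 0.00301) and -0.63 ± 0.09 from Sar1A (limma adjusted p = 0.0270), the latter lost without either control line (0.0723) or Sar1B:H79G line 1 (0.0511). Foxa2, a forkhead factor of liver, differed by -1.20 ± 0.10 from Sar1B (limma adjusted p = 0.00368). Nr3c1, the glucocorticoid receptor, fell by 0.56 and Cebpb rose by 0.53 (limma adjusted p = 0.0486). Nfe2l2, Ahr, Nr1i2 and Nr1i3, the receptors and sensors best known for inducing conjugation enzymes, did not pass, with Ahr at -0.95 ± 0.39 and Nfe2l2 at -0.52 ± 0.15.

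Among 15 measured NFE2L2 targets outside the conjugating families, Slc7a11, the cystine importer, was higher in Sar1B:H79G than in Sar1B lines by 2.38 (limma adjusted p = 0.0163). Aox1, Gclc and Me1 were lower, by 1.17, 0.76 and 0.75. Against control, 5 of the 15 were higher in Sar1B:H79G lines and 0 lower, where 13.2% and 9.17% of all probe sets were. Their median there was 0.19, and it was 0.41 for Sar1B against control, with array series and construct not told apart. Between Sar1B:H79G and Sar1B lines, the medians of the lists ran from -0.20 for the NFE2L2 targets to 0.026 for the conjugate-removing enzymes, against 0.0078 over all probe sets. Of these genes Abcb1a, Abcc5, Foxa2 and Hnf4a kept the call against Sar1B under each alternative run, while each of the others lost it when at least 1 line was left out. Tpmt and Gusb lost it without Sar1B line 2 alone (limma adjusted p of 0.0656 and 0.0613). Either control line left out ended the call of Slc7a11 (0.0581), Nr3c1 (0.0592), Ugp2 (0.0589), Sts (0.0518), Aox1 (0.0769), Gclc (0.0875), Abcg2 (0.0855), Me1 (0.0919), Baat (0.0976) and Cebpb (0.118). Of these 10, Slc7a11 (0.0632), Nr3c1 (0.115), Ugp2 (0.109), Sts (0.0852), Gclc (0.113), Me1 (0.109), Baat (0.150) and Cebpb (0.197) also lost it without Sar1B line 2, and Abcg2 (0.101), Gclc (0.103), Me1 (0.138) and Cebpb (0.0511) without Sar1B line 1. Without Sar1B:H79G line 1 it was lost for Abcg2 (0.0780), Aox1 (0.0509), Cebpb (0.134), Nr3c1 (0.0753) and Ugp2 (0.0620), and without Sar1B:H79G line 2 for Aox1 (0.0717), Baat (0.128), Me1 (0.0790), Sts (0.0652) and Ugp2 (0.0886). Of the 9 hepatocyte markers, Apob and Hnf4a were lower in Sar1B:H79G than in Sar1B lines and 7 did not pass. The part of these markers in the conjugation results was not tested.

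**Figure D4:**
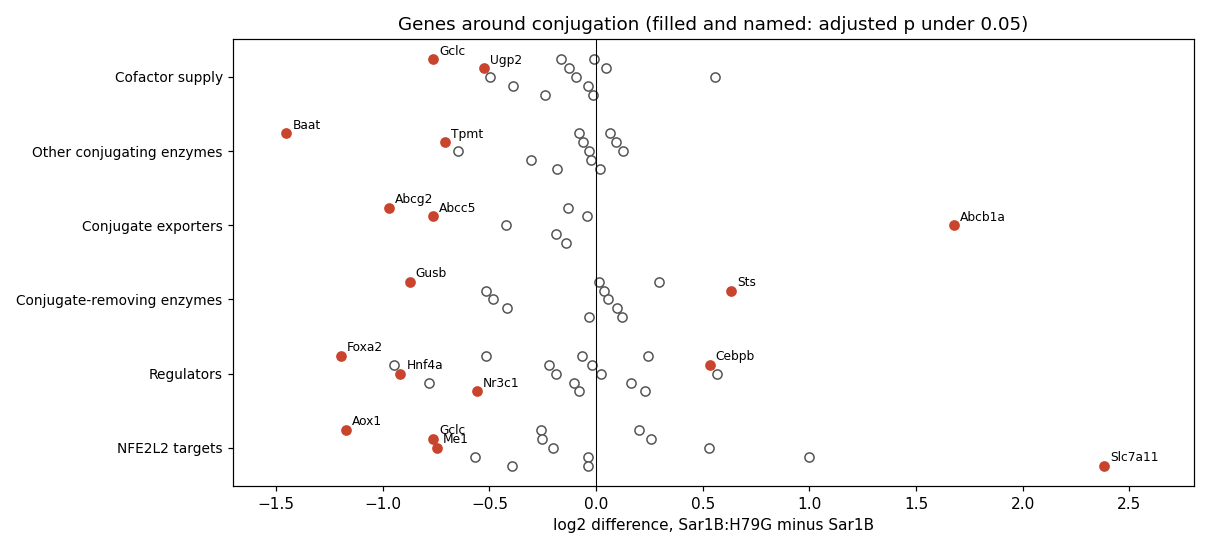
Difference in log2 signal between Sar1B:H79G and Sar1B lines for genes of 6 lists around conjugation, 1 point per gene by its brightest probe set; filled, named points passed an adjusted p of 0.05, and vertical spread within a list has no meaning. Slc7a11 lies farthest right at 2.38 and Baat farthest left at -1.45.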

How the data were processed

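RNA of 25 samples was hybridized to Affymetrix rat whole-genome arrays. Per the study's methods, the authors normalized and summarized the intensities in CARMAweb (loess, MAS 5), and the deposited values, 1 per probe set and array, are on a log2 scale. The base was inferred from their range, and detection calls were not used here. Of 31099 probe sets, 57 array controls were left out. Probe sets were named from the platform annotation: 20826 had 1 symbol, 436 several and 9780 none. All 25 arrays had medians between 8.10 and 8.16, and no 2 were identical. Arrays give no read depth, so the number of lines limits the precision.

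Arrays were averaged per line, and limma 3.58.1 (R 4.3.3, statmod 1.5.0) was fitted to the 7 line means with 4 groups (3 residual degrees of freedom, prior degrees of freedom 3.16). The 6 comparisons were adjusted by Benjamini-Hochberg over 31042 probe sets and called at 0.05. The study's methods name SAM on single arrays, and a limma fit of single arrays was tried in its place. The code was tested on simulated data.

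Members, lists and tests were chosen with earlier results of these data known. Given with values in every line are members called in at least 1 comparison with an absolute log2 difference of 1 or more there, or called in at least 2 of the 3 comparisons among Sar1 lines. In a list each gene is its brightest probe set, and up to 3 called genes per direction are named by size. The 4 probe sets with several symbols of these families are not members, and none of the 4 was called. By gene ID 49 of 50 member probe sets matched RefSeq (GRCr8), with no symbol changed. Promoters came from RefSeq and were searched in Python 3.11.15. Alternatives were other normalizations, the unit of replication, moderation, a filter on dim probe sets, the groups in the fit, a replicate block and leaving out each line.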

Additional observations from a re-analysis of the deposited data

Results flagged for a closer look

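Within groups of 4 to 10 arrays, the 14 called members gave 56 sets of values, and 4 held an array whose gap to its nearest neighbour was large for the range of its group by Dixon's criterion. Chance gives about 1 in 20 such sets. Gstm2 on Sar1A array 1 was 7.44, with the nearest array at 7.65. Gstt3 on array 1 of control line 2 was 12.38, with the nearest at 12.31. Sult1c2 on array 1 of control line 1 was 6.84, with the nearest at 6.99. The called Ugt8 probe set on array 1 of Sar1B line 1 was 6.13, with the nearest at 6.59.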

How the results depend on the processing

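Calls of members depended mostly on what counted as a replicate. With each array as a replicate, 26, 20, 5, 31, 26 and 20 members were called in Sar1B:H79G against Sar1B, Sar1B:H79G against Sar1A, Sar1A against Sar1B, and Sar1B:H79G, Sar1B and Sar1A against control, where the line means gave 9, 4, 0, 13, 2 and 1. Over all probe sets, 31.8, 23.2, 10.3, 52.3, 42.2 and 36.2% were called that way, in the same order. The line means gave 8.63, 2.96, 0.00322, 22.3, 8.29 and 1.18%. Treating lines as a random block, 22.2, 14.6, 3.84, 38, 26.4 and 19.3% of all probe sets were called. The member counts there were 22, 15, 3, 25, 18 and 13. With only the groups compared in the fit they fell to 0 for Sar1B:H79G against Sar1A and rose to 5 for Sar1A against control. For Sar1B against control, the fit of brighter probe sets gave 1 and the trended, robust moderation 4. Leaving out 1 line in turn gave 6 to 10, 3 to 4, 0 to 0, 6 to 16, 0 to 3 and 0 to 1, in the order above. When a group was left with 1 line, that line was assumed to vary like the others. With the line number as a replicate block, without the Sar1A line, the counts were 9 for Sar1B:H79G against Sar1B, 15 for Sar1B:H79G against control and 3 for Sar1B against control. Same-numbered lines shared only a number: the correlations of their deviations between groups were 0.0071, 0.19 and 0.075. Of 861 alternative values for 63 called single-gene differences, 675 kept the call, 186 lost it and 0 changed direction. Cross-hybridization between close relatives was not tested, and signal over background could not be judged without detection calls.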
